A study of Mus musculus with 24 samples.

Results

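Ribosome biogenesis factors, the nucleolar proteins that transcribe, modify, cut and assemble ribosomal RNA, were followed across 8 groups of a mouse pancreatic cancer line. The set held 42 genes chosen by name for nucleolar rRNA processing, small nucleolar ribonucleoproteins (snoRNPs) and RNA polymerase I, out of 54532 genes in the deposited table. All 42 were present in the table under their symbols, and all 42 were among the 12061 genes kept for testing. They were ordered by role: 4 proteins of box C/D snoRNPs, 4 of box H/ACA snoRNPs, 14 factors of the small ribosomal subunit, 12 of the large subunit, 5 of RNA polymerase I and 3 multifunctional nucleolar proteins.

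Ribosomes are built in the nucleolus, where RNA polymerase I copies ribosomal DNA into a long precursor. Box C/D and box H/ACA snoRNPs guide methylation and pseudouridylation of that precursor, while the small-subunit processome and the large-subunit assembly factors cut and fold it and add ribosomal proteins. The pathway uses much of a growing cell's nucleotide supply, and many of its genes are known targets of the transcription factor MYC. Serine and glycine feed nucleotide synthesis through one-carbon units, and Phgdh encodes the first enzyme that makes serine from glucose.

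The cells were HY19636, labelled as a mouse pancreatic ductal adenocarcinoma (PDAC) line, in which Phgdh was intact (WT) or knocked out (KO). Each genotype was grown alone (monoculture) or with hepatocytes (coculture), in medium with serine and glycine (replete below) or in medium free of both (free below), which gave 8 groups of 3 RNA sequencing libraries. The comparisons ask how the cells respond to loss of serine from outside, with and without their own synthesis of it, and whether hepatocytes in the culture alter that response, as the title of the series concerns serine supply by hepatocytes. The sources used here do not give whether the KO line was 1 clone or a pool, which part of Phgdh was edited, or how hepatocytes were kept apart from the cancer cells.

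Values are FPKM, the fragments of a gene per kilobase of its length at a common depth. They measure transcripts and not proteins, also where a member is named by its protein. The libraries held 15740081 to 23479425 reads in genes. Phgdh itself was at 789 to 1405 FPKM in the 12 WT libraries and at 372 to 885 in the 12 KO libraries. In each medium and culture every KO library was below every WT library, with log2 differences of -0.95, -0.21, -0.57 and -0.88 (replete and free monocultures, replete and free cocultures), of which that in free monocultures missed the threshold (limma adjusted p = 0.115). Of 15 hepatocyte markers at least 10 had 0 reads in every group, and their summed FPKM was 0.0817 to 1.16 in all libraries; Serpina1a, Fgb, Ahsg and Cyp2e1 were at 0 throughout. The 7 ductal markers had no member at 0 and summed to at least 1125 FPKM in every library. Of these 7, 6 were expressed enough to be tested, all but Epcam. Replicate 1 of the replete KO monocultures stood apart from its group (chi-square per degree of freedom 65.72 and 53.04 against replicates 2 and 3), as did replicate 1 of the free KO cocultures against replicate 2 (41.07). Counts of called members that rest on these libraries are also given without them. Shares of all tested genes are those of the fit to all libraries and groups. They are not given for alternative fits, so a changed count there need not concern the members alone.

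Promoter sequences were examined for the letters CACGTG, the E-box to which MYC and its partner proteins can bind, because the members moved together and Myc mRNA was measured beside them. The RefSeq promoter table (build GRCm38.p6) matched 37 of the 42 members. Rrs1, Fbl, Rrp12, Bop1 and Npm1 were not matched. In the 250 bases before the start site, CACGTG, which reads the same on both strands, stood in 3 of the 37 members (8.11%), namely Utp18, Nop2 and Rrn3, against 6.86% of all 27025 genes in the table. The motif's share among the members was therefore near that of all promoters. The 3 sequences that hold it are given here with those of Nop10 and Polr1b, which lacked it and which changed in opposite directions on serine withdrawal in KO monocultures. All are written 5′ to 3′ on the gene's strand, CACGTG is in capitals, and they cover chr16:13780449-13780698 (+) for Rrn3, chr6:125131633-125131882 (+) for Nop2, chr11:93885767-93886016 (-) for Utp18, chr2:112261676-112261925 (+) for Nop10 and chr2:129100746-129100995 (+) for Polr1b.
Rrn3: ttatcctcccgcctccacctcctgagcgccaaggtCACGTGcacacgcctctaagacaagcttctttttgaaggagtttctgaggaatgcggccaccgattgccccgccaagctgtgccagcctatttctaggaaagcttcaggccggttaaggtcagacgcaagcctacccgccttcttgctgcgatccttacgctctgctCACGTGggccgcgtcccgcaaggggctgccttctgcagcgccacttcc
Nop2: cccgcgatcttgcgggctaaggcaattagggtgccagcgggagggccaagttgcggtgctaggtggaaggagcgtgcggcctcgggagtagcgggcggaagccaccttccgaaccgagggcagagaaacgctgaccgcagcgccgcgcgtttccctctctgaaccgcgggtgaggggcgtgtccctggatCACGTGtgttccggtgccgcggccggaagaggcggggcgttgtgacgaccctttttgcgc
Utp18: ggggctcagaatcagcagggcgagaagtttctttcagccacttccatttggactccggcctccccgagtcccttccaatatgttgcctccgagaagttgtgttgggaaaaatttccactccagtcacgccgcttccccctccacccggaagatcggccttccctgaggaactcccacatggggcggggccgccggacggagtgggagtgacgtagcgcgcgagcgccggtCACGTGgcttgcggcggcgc
Nop10: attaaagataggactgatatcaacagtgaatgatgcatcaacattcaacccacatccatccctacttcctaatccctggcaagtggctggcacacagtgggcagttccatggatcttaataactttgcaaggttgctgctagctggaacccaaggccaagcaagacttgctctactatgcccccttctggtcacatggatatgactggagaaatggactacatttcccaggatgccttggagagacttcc
Polr1b: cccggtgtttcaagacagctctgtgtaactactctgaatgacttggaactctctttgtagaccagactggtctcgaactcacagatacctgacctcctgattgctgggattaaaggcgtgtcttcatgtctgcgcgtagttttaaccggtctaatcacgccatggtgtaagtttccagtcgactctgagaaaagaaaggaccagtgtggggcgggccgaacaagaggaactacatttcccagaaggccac
A match is a description of the letters and not a bound site, and its absence says only that these letters are not in this window.

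The free KO monocultures stood above all other groups for most members. Of the 42 members, 36 had their highest group mean there, and the exceptions were Nop2, Gnl3 and Ncl (highest in replete KO monocultures), Pes1, Polr1b and Npm1 (highest in a WT group). The share of all tested genes that were highest in this group was not counted. Many other genes also changed there, as 36.2% of all tested genes rose and 34.5% fell on withdrawal in KO monocultures, by the test given below. Each member's log2(FPKM + 1) was set against its own mean over the 24 libraries, and the median over members was 0.78, 0.81 and 0.81 in the 3 free KO monocultures. In the replete KO monocultures it was 0.22, 0.14 and 0.12, and in the 6 WT monocultures it lay between 0.03 and 0.10. All 12 cocultures were below 0, with -0.10 to -0.18 in the 6 WT cocultures, -0.27 to -0.32 in replete KO cocultures and -0.32 to -0.37 in free KO cocultures. Free KO cocultures had the lowest group mean for 22 members and replete KO cocultures for 9, and the same shares of all tested genes were not counted. The ratio of the highest to the lowest group mean FPKM ran from 1.37 for Gnl3, a nucleolar GTPase, to 6.51 for Rrp12, with a median of 2.50 over the members. In these bulk libraries, fewer cells of a type and less RNA per cell cannot be told apart.

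**Figure D1:**
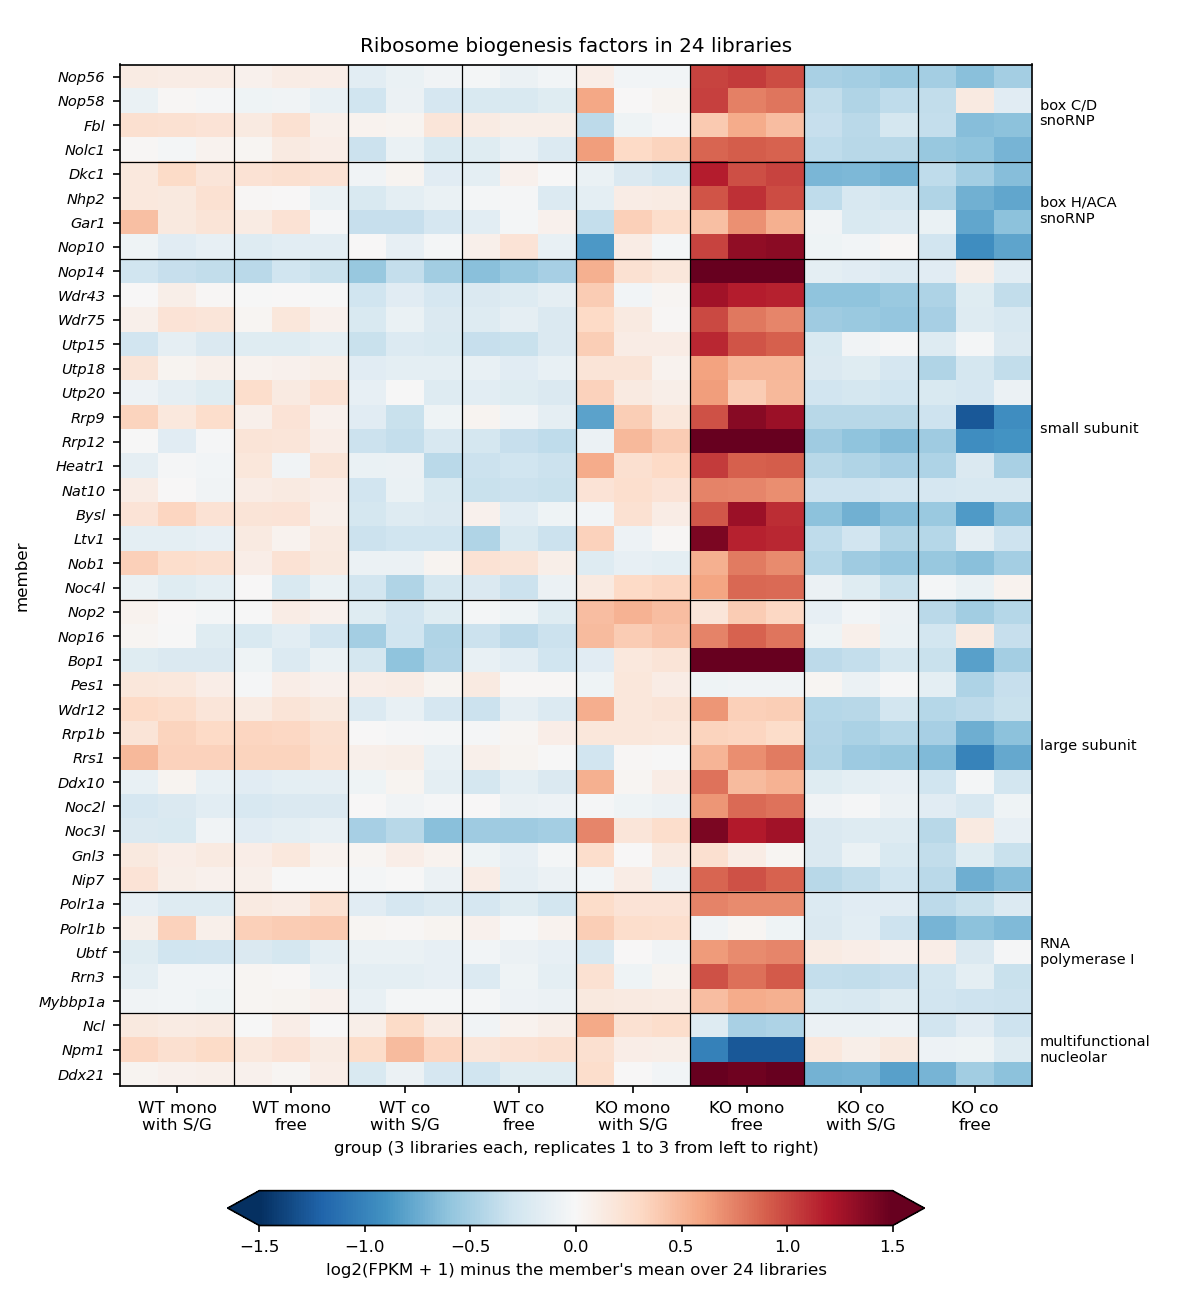
Log2(FPKM + 1) of the 42 members (vertical, grouped by role) in the 24 libraries (horizontal, 3 per group), each minus the member's mean over all libraries; red is above and blue below that mean, and the colours are limited to 1.5 either way. The 3 free KO monocultures are red for nearly all members, with Npm1 and Ncl blue, and the cocultures are mostly blue.

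Withdrawal of serine and glycine from KO monocultures raised 35 of the 42 members and lowered 4. A gene was called where limma's moderated test on log2(FPKM + 1) gave an adjusted p under 0.05, and by this rule 36.2% of all tested genes rose and 34.5% fell. The median change of the members was 0.67 on the log2 scale, where that of all tested genes was 0.00. Same-numbered libraries deviated together in this comparison, though the labels give no pairing, and with the replicate number as a block 35 rose and 4 fell. Without replicate 1 of the replete KO monocultures 35 rose and 5 fell, and without replicate 1 of both KO monocultures 34 and 5. Gnl3, Pes1 and Wdr12 were not called, with log2 changes of 0.00, -0.13 and 0.16. Without replicate 1 of the replete KO monocultures Pes1 was called lower (-0.20, limma adjusted p = 0.014) and Wdr12 higher (0.28, adjusted p = 0.00483). Gar1, called with all libraries, was not called in that fit. Pes1 and Wdr12 were also called without replicate 1 of both KO monocultures (adjusted p = 0.0306 and 0.0289), while Gar1 and Rrp1b were not.

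All 4 box C/D genes rose, with a median of 0.64. The leading one was Nop56, a core protein of box C/D snoRNPs (chromosome 2, 130274430 to 130279313, plus strand, GRCm38). Nop56 was at 56.3, 51.2 and 50.9 FPKM in replete and 107.5, 109.4 and 104.9 in free KO monocultures. It was at 57.2, 56.7 and 56.9 in replete WT monocultures, 55.1, 56.8 and 56.6 in free ones, and 47.2, 49.1, 50.5, 51.3, 49.5 and 51 in the WT cocultures. The KO cocultures held 37.3, 36.6 and 35.4 when replete and 36.7, 33.6 and 36.5 when free. The free KO monocultures were thus about level with one another and above all 21 other libraries, and the KO cocultures were the 6 lowest. The log2 change of Nop56 on withdrawal in KO monocultures was 1.01 ± 0.05 (SE, limma adjusted p = 1.81e-13). The expressed gene Idh3b lies on its opposite strand and the use of strand in counting is unknown, so its level is uncertain. Expressed genes also lie opposite Dkc1 (Mpp1), Nhp2 (Rmnd5b), Rrp9 (Parp3), Heatr1 (Gm5928 and Lgals8), Bysl (Ccnd3), Gnl3 (Pbrm1) and Mybbp1a (Spns2), and the same limit holds for them. Nop58, the partner of Nop56, rose by 0.66, the methyltransferase Fbl by 0.63 and the chaperone Nolc1 by 0.47.

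All 4 box H/ACA genes rose as well, with a median of 1.11, the highest of the roles, though the call of Gar1 rested on 1 library. Nop10, the smallest of them (chromosome 2, 112261926 to 112263269, plus strand), was at 13.8, 28 and 25.3 FPKM in replete and 53.1, 66.4 and 67.2 in free KO monocultures. Its WT monocultures held 24.7, 22.8, 23.6, 22.5, 23 and 23.1, and its WT cocultures 26, 23.5, 25.2, 27.2, 29.9 and 23.7. In KO cocultures it was at 24.7, 25.1 and 26.1 when replete and 20.9, 13.1 and 14.5 when free. Free KO monocultures did not overlap any other group, while replicate 1 of the replete ones was low. Nop10 rose by 1.49 ± 0.18 (limma adjusted p = 5.28e-07), and by 1.19 with that replicate left out. Dkc1, the pseudouridine synthase, rose by 1.25, Nhp2 by 0.97 and Gar1 by 0.47. The call of Gar1 was lost without replicate 1 of the replete KO monocultures (0.25, limma adjusted p = 0.127). It was lost too without replicate 1 of both KO monocultures (0.30, adjusted p = 0.0968).

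All 14 small-subunit factors rose, with a median of 0.81. Rrp12, a HEAT-repeat protein of pre-40S maturation (chromosome 19, 41862852 to 41896153, minus strand), was at 7.16, 11.2 and 10.3 FPKM in replete and 24.4, 27.3 and 27.8 in free KO monocultures. WT monocultures held 7.64, 6.72 and 7.59 when replete and 8.94, 8.8 and 8.31 when free, and WT cocultures 5.93, 5.79, 6.35, 6.21, 5.81 and 5.65. KO cocultures were at 4.98, 4.71 and 4.54 when replete and 5, 3.54 and 3.67 when free. The 6 KO cocultures were below every WT library, and the 3 free KO monocultures above everything else. Rrp12 rose by 1.4 ± 0.12 (limma adjusted p = 2.08e-09). Next came Nop14 at 1.35, Rrp9, a U3 snoRNP protein, at 1.29 ± 0.23 (0.93 without replicate 1 of the replete KO monocultures), Ltv1 at 1.14, and the processome protein Wdr43 at 1.07. The least change was in Utp20, another processome protein, at 0.31.

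Of the 12 large-subunit factors 8 rose, 1 fell and 3 were not called, with a median of 0.39. Bop1, which works with Pes1 and Wdr12 in the PeBoW complex of 60S assembly (chromosome 15, 76452989 to 76477277, minus strand), was at 15.5, 19.7 and 20.2 FPKM in replete and 54.7, 66.8 and 67 in free KO monocultures. WT monocultures held 15.4, 14.9, 15, 16.8, 15.1 and 16.3, and WT cocultures 14.5, 11.2, 12.7, 16.2, 15.6 and 14.1. KO cocultures held 13.1, 13.5, 14.5, 13.7, 9.52 and 12. Outside the free KO monocultures no library of Bop1 passed 20.2. Its rise of 1.72 ± 0.12 was the largest of the members (limma adjusted p = 9.06e-11), while its partners Pes1 and Wdr12 were not called. Without replicate 1 of the replete KO monocultures, however, Pes1 was called lower (-0.20) and Wdr12 higher (0.28). Mroh1 and Scx, expressed on the opposite strand of Bop1, could share its reads. Nop2, an rRNA cytosine methyltransferase, was at 69.8, 72.2 and 69.8 in replete and 56.9, 65.6 and 62.7 in free KO monocultures and fell by 0.19 on the log2 scale (limma adjusted p = 0.00434). With only these 2 groups fitted, Nop2 missed the threshold (adjusted p = 0.0682), and with the replicate block in that same fit it passed (adjusted p = 0.0408). That block fit was chosen after the data were seen.

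Of the 5 RNA polymerase I genes 4 rose and 1 fell, with a median of 0.49. Rrn3, the initiation factor that brings polymerase I to the promoter (chromosome 16, 13780708 to 13814839, plus strand), was at 24.6, 19.9 and 21.4 FPKM in replete and 41.4, 37.7 and 40.2 in free KO monocultures. WT monocultures held 18.8, 20.3, 20.3, 21.3, 21.2 and 19.6, and WT cocultures 18.8, 18.8, 19, 17.9, 19.9 and 18.8. KO cocultures held 16.1, 15.9, 16.2, 17.1, 18.7 and 16.3. All 3 free KO monocultures were far above the remaining 21, whose highest value was 24.6. Rrn3 rose by 0.83 ± 0.07 (limma adjusted p = 8.55e-10). The rDNA-bound factor Ubtf rose by 0.78, the largest polymerase subunit Polr1a by 0.49 and the regulator Mybbp1a by 0.39. Polr1b, the second-largest subunit, went the other way, from 9.09, 8.38 and 8.26 to 6.51, 6.93 and 6.48 FPKM, and fell by 0.33 on the log2 scale (limma adjusted p = 0.000105). The catalytic core of polymerase I is formed by Polr1a together with Polr1b, and their transcripts changed in opposite directions here.

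The 3 genes of multifunctional proteins split. Ddx21, an RNA helicase that links polymerase I and polymerase II transcription (chromosome 10, 62580251 to 62602281, minus strand), was at 51.2, 42.5 and 41.2 FPKM in replete and 142.9, 117.9 and 121.7 in free KO monocultures. WT monocultures held 43.8, 44.3, 44.6, 44.3, 43.4 and 45.4, and WT cocultures 36, 39.9, 35.4, 34.2, 37.2 and 37.4. KO cocultures held 25.6, 25.7, 23.7, 25.8, 29.3 and 27.3, all below every other library. Ddx21 rose by 1.48 ± 0.08 on withdrawal (limma adjusted p = 2.44e-12). Npm1 (nucleophosmin), a histone and ribosome chaperone on chromosome 11 (33152287 to 33163206, minus strand), was at 943.9, 856.4 and 847.9 FPKM in replete and 395.6, 330.3 and 329 in free KO monocultures. All WT libraries of Npm1 were at 871.3 to 1111.3 FPKM, and the KO cocultures were at 892.1, 850.3 and 879.4 when replete and 753.9, 763.1 and 697.9 when free. The free KO monocultures were therefore the 3 lowest libraries for Npm1, with no overlap. Npm1 fell by 1.33 on the log2 scale (SE 0.07, limma adjusted p = 1.26e-12). Ncl (nucleolin) was at 214.6, 169.4 and 173.9 in replete and 125.8, 102.7 and 104.6 in free KO monocultures, and fell by 0.74. Npm1 shares sequence with other genes (30.9% of its 75-base windows occur in transcripts of 7 other genes), so reads could have been split among copies; the same holds for Nop56 (14.4%) and Pes1 (10.5%).

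**Figure D2:**
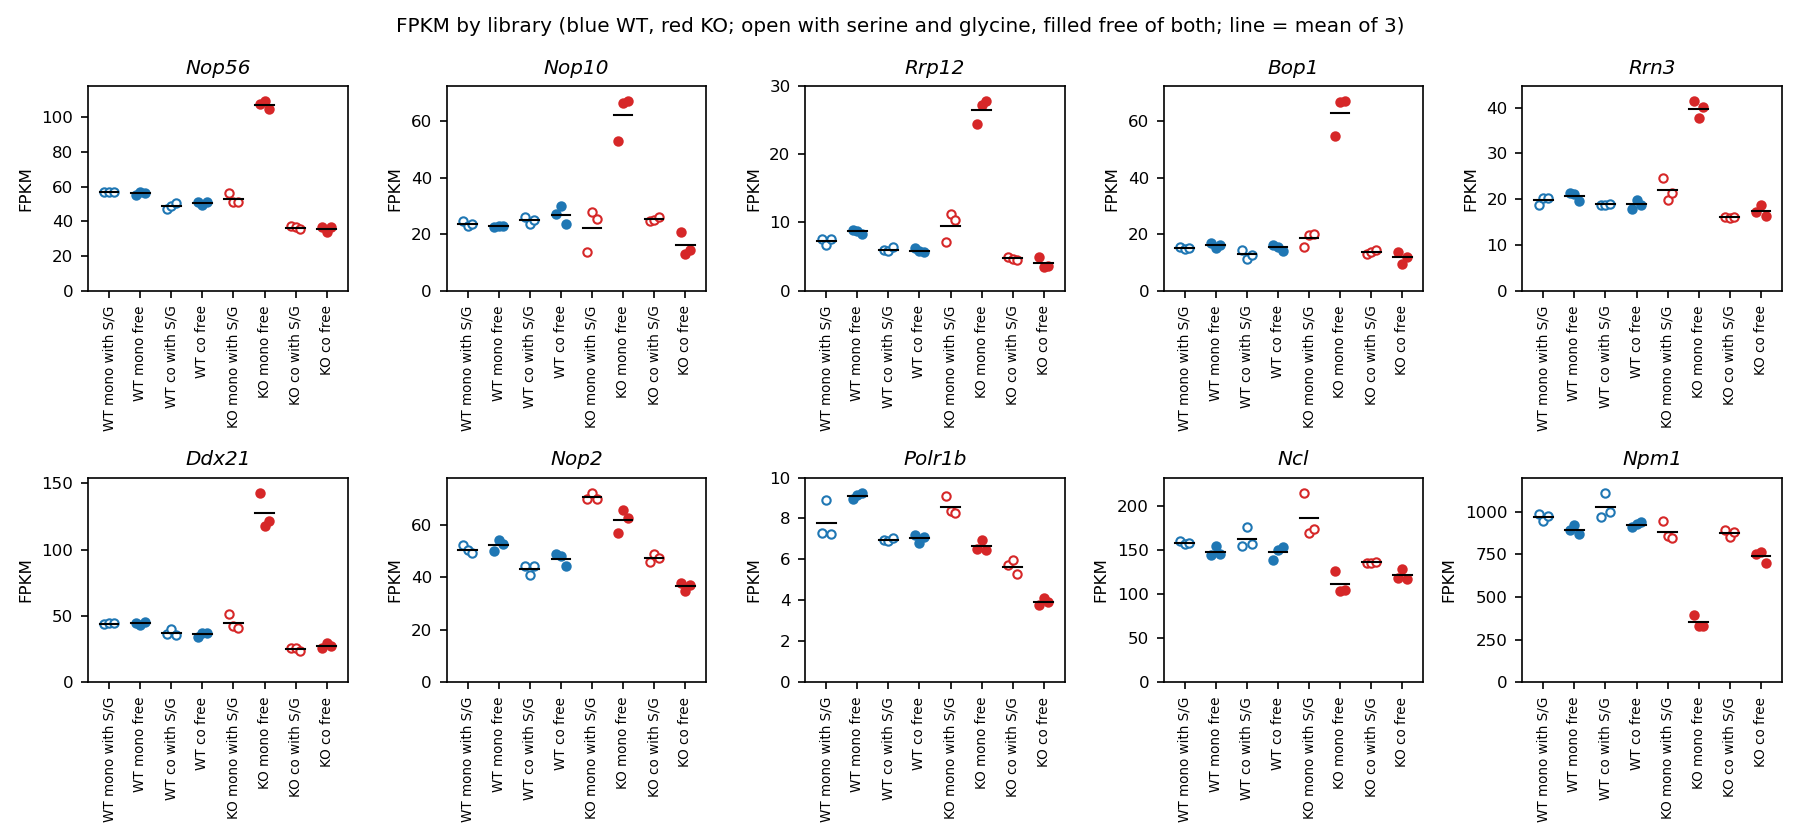
FPKM (vertical) of 10 members in the 24 libraries, by group (horizontal); blue is WT, red is KO, open circles are replete and filled circles free of serine and glycine, and lines are means of 3 libraries. Nop56, Nop10, Rrp12, Bop1, Rrn3 and Ddx21 peak in free KO monocultures, where Ncl and Npm1 are at their lowest and Nop2 and Polr1b are below replete KO monocultures.

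The same withdrawal changed few members in WT cells. In WT monocultures 2 of 42 rose and 0 fell, where 1.37% of all tested genes rose and 0.257% fell. These 2 were Polr1a, from 7.16, 6.76 and 6.76 to 8.77, 8.58 and 9.45 FPKM (log2 change 0.33 ± 0.05, limma adjusted p = 0.00138), and Utp20, from 7.17, 6.85 and 6.59 to 9.36, 8.45 and 8.95 (0.33 ± 0.07, adjusted p = 0.0197). Neither overlapped between media. The call of Utp20 was lost without replicate 2 or 3 of the replete WT monocultures or replicate 1 or 3 of the free ones (adjusted p of 0.0755, 0.105, 0.123 and 0.0902). In WT cocultures 0 of 42 members were called by limma and 0 by limma-voom on recovered reads, and 0.439% of all tested genes rose and 0.298% fell. An unadjusted limma p under 0.05 was found for 5 members and for 1143 of the 12061 tested genes.

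The response to withdrawal differed between genotypes in monoculture. As an interaction in the same limma model, 32 of 42 members had a higher change in KO than in WT cells and 4 a lower one, where 31.4% and 29.8% of all tested genes did so. The median difference was 0.72 for the members and 0.00 for all tested genes. With replicate 1 of the replete KO monocultures left out 33 were higher and 4 lower. Polr1a and Utp20, the 2 members that rose in WT cells, were not called for the interaction (0.16 and -0.02), nor were Gnl3, Pes1, Rrp1b and Wdr12.

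In coculture with hepatocytes, 29 of the 42 members were not called for withdrawal in KO cells. There 2 of 42 rose and 11 fell, against 15.5% and 14.4% of all tested genes, and the median was -0.11. Wdr43 and Wdr75, a pair of processome proteins, rose by 0.25 each (limma adjusted p = 0.0249 and 0.031). Nop10 fell by 0.65, Polr1b by 0.43 and Nop2 by 0.36 on the log2 scale (limma adjusted p = 0.013, 4.95e-05 and 8.92e-05). Polr1b went from 5.72, 5.96 and 5.27 to 3.79, 4.09 and 3.94 FPKM and Nop2 from 45.9, 48.8 and 47.2 to 37.8, 34.8 and 37.1, neither with overlap. Of the leading members of the monoculture response, Bop1 changed by -0.21, Ddx21 by 0.13, Rrn3 by 0.10 and Nop56 by -0.03, none of them called. The 11 became 7 without any 1 replicate of the replete KO cocultures or without replicate 2 or 3 of the free ones, 16 without replicate 1 of the free ones and 18 without replicate 1 of both KO monocultures. With only these 2 groups fitted they became 5. The 2 rises were both lost without replicate 1 or 2 of the replete or replicate 2 of the free KO cocultures. Without replicate 2 or 3 of the free KO cocultures, Nop10 missed the threshold (adjusted p = 0.0801 and 0.0508).

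Coculture and withdrawal interacted in KO cells for most members. The change on withdrawal was lower in coculture than in monoculture for 33 of 42 members and higher for 2 (limma interaction), where 29.8% and 27.9% of all tested genes were. Ncl and Npm1 were the 2 that were higher, by 0.57 and 1.09. Without replicate 1 of both KO monocultures 36 were lower and 2 higher, and without replicates 1 and 2 of the free KO cocultures 32 and 2. The median difference was -0.77 for the members and -0.02 for all tested genes. In coculture, the genotype-by-withdrawal interaction was called for 3 members, all lower in KO cells, namely Nop2 (-0.49), Polr1b (-0.44) and Nhp2 (-0.42), and for 0 members higher. Of all tested genes 6.38% were lower and 8.06% higher, so the lower count was near the share of all genes. By voom 4 were lower and 0 higher. An unadjusted limma p under 0.05 was found for 15 members and for 3842 of the 12061 tested genes. Without replicate 1 of the free KO cocultures 11 were lower and 1 was higher, and without replicate 1 of the replete WT cocultures 1 was higher.

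**Figure D3:**
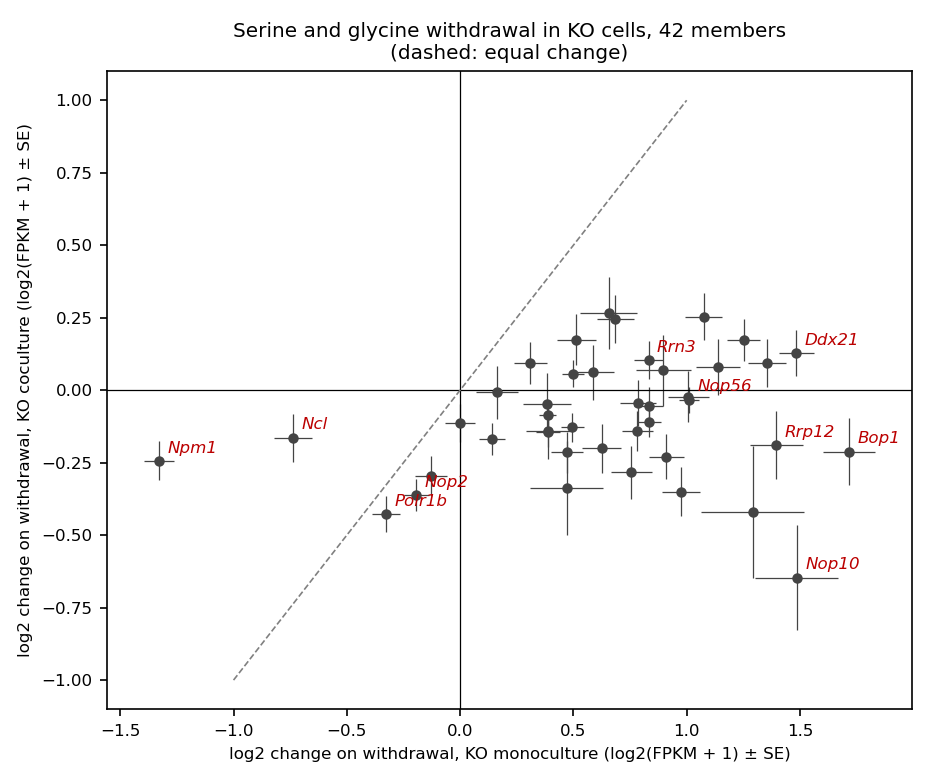
Log2 change of each of the 42 members on withdrawal of serine and glycine in KO monocultures (horizontal) and in KO cocultures (vertical), on the log2(FPKM + 1) scale with bars of 1 SE; the dashed line marks equal change. Most members lie far to the right near a vertical value of 0, and Npm1, at -1.33, lies farthest to the left.

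Coculture lowered members in all 4 settings. In WT cells it lowered 18 of 42 and raised 1 in replete medium, against 14.9% and 16.3% of all tested genes, and lowered 18 and raised 1 in free medium, against 13.1% and 14.9%. In KO cells it lowered 34 and raised 1 in replete medium (all genes 19.9% and 20.1%), and lowered 40 and raised 1 in free medium (36.3% and 35%). The members' medians were -0.20, -0.16, -0.45 and -1.10 in this order, and those of all tested genes were between -0.02 and -0.01. There were 11 members lower in all 4 settings (Ddx21, Dkc1, Nat10, Noc3l, Nolc1, Nop56, Rrp1b, Rrs1, Utp18, Wdr12 and Wdr75), where 2.99% of all tested genes were lower in all 4. There were 33 members lower in both KO settings, against 11.3% of all tested genes. The 4 comparisons share no libraries.

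In replete WT cells the largest decreases were those of Gar1, a box H/ACA protein (-0.57), Bysl, a pre-40S factor (-0.47), and Wdr12 (-0.44), with limma adjusted p of 0.0101, 0.000392 and 0.000984. The call of Gar1 was lost without replicate 1 of the replete WT monocultures (adjusted p = 0.0557). In free WT cells they were Rrp12 (-0.49), the RNA acetyltransferase Nat10 (-0.45) and Ltv1 (-0.44), with limma adjusted p of 0.00309, 5.57e-07 and 0.00174. Noc2l, a large-subunit transport factor, was the 1 member higher in each WT setting, by 0.19 and 0.18; voom called it in neither, and its call in free medium was lost without replicate 1 of the WT cocultures or of the WT monocultures (adjusted p = 0.0773 and 0.0519).

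In replete KO cells Rrp12 was lower in coculture by -0.86, Nolc1 by -0.82 and Heatr1, a processome protein, by -0.82 (limma adjusted p = 7.03e-06, 1.74e-08 and 1.03e-06). Nolc1 averaged 44.2 FPKM in monoculture and 24.4 in coculture. The 1 member higher there was Ubtf (0.19), whose call was lost without replicate 1 of the replete KO monocultures or replicate 1 or 2 of the replete KO cocultures (adjusted p = 0.177, 0.0878 and 0.0726). The counts were 36 lower and 0 higher without replicate 1 of the replete KO monocultures. As an interaction, coculture lowered 16 members more in replete KO than in replete WT cells, with Heatr1 (-0.68), Rrp12 (-0.62) and Nolc1 (-0.59) first, and 0 less; 5.39% of all tested genes were lower and 4.98% higher. Leaving out replicate 1 of the replete KO monocultures gave 15 lower, and fitting only the compared groups gave 10. By voom 16 were lower and 0 higher. An unadjusted limma p under 0.05 was found for 25 members and for 2945 of the 12061 tested genes.

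Of the 4 settings, free KO cells had the most members lower in coculture and the lowest median. This comparison, withdrawal in KO monocultures and KO against WT in free monoculture all use the same 3 free KO monocultures, so they are not independent. The interactions of withdrawal with genotype in monoculture and with coculture in KO cells use these libraries too. All 4 box C/D, 4 box H/ACA, 14 small-subunit, 12 large-subunit and 5 RNA polymerase I genes were lower in coculture, with medians of -1.26, -1.61, -1.29, -0.93 and -0.82. Rrp12 averaged 26.5 ± 1.84 FPKM (SD, n = 3) in monoculture and 4.07 ± 0.81 in coculture (log2 change -2.45 ± 0.12, limma adjusted p = 4.06e-13). Bop1 went from 62.9 ± 7.04 to 11.8 ± 2.12 (-2.33 ± 0.12) and Ddx21 from 127 ± 13.5 to 27.5 ± 1.75 (-2.17 ± 0.08). Npm1 was higher in coculture, at 738 against 352 FPKM (1.07 ± 0.07), and Ncl was not called (0.13). Without replicates 1 and 2 of the free KO cocultures 40 were lower and 1 higher. Without replicate 1 of the free KO monocultures Ncl too was higher (0.22, limma adjusted p = 0.023).

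Against WT cells, KO cells had more members higher than lower in monoculture and more lower than higher in coculture. In monoculture KO cells had 16 members higher and 4 lower when replete (all tested genes 21.5% and 21.1%), with a median of 0.13, and 36 higher and 3 lower when free (37.4% and 36.3%), with a median of 0.84. In coculture they had 4 higher and 20 lower when replete (21.8% and 22%), with a median of -0.18, and 2 higher and 24 lower when free (26.3% and 27.4%), with a median of -0.26. In replete monoculture 15 members were higher and 6 lower without replicate 1 of the replete KO monocultures, and without replicate 1 of the free KO cocultures 2 were higher and 24 lower in free coculture. Against WT cells in the same culture, 18 members were higher in free KO monocultures and lower in free KO cocultures, among them Bop1, Ddx21, Dkc1, Nop10, Nop56 and Rrp12, where 4.98% of all tested genes did so.

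Nop14 and Noc3l, a processome protein and a large-subunit transport factor, were the 2 members higher in KO cells in all 4 settings, as were 7.68% of all tested genes. Nop14 was at 37.1 to 47.1 FPKM in the WT libraries. In KO monocultures it was at 84.3, 68 and 65.1 when replete and 197.4, 179.2 and 180.2 when free, and in KO cocultures at 52.3, 51.6, 50.1, 51.6, 61.7 and 51.9. Every KO library was above every WT library of Nop14. Its log2 differences were 0.65, 2.0, 0.31 and 0.48 (limma adjusted p = 3.98e-06, 5.00e-14, 0.00554 and 7.26e-05, in the order replete and free monoculture, replete and free coculture). In replete coculture Nop14 missed the threshold with quantile normalization (0.22, adjusted p = 0.0686). Those of Noc3l were 0.56, 1.43, 0.31 and 0.39, of which that in replete coculture was near the threshold (limma adjusted p = 0.0488) and missed it with a replicate block (0.0656), with voom (0.0566) and without any 1 library of that comparison other than replicate 2 of the WT cocultures. In free coculture its call was lost without replicate 2 of the free KO cocultures (adjusted p = 0.0913).

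Of the members 0 were lower in KO cells in all 4 settings and 16 were lower in both cocultures, against 8.19% and 15.4% of all tested genes. Rrs1, a factor of 5S particle and 60S assembly, was at 34.7 FPKM in free WT and 19.0 in free KO cocultures (-0.85 ± 0.09, limma adjusted p = 2.14e-07). Nob1, the nuclease that makes the 3′ end of 18S rRNA, went from 20.7 to 12 (-0.74 ± 0.06, adjusted p = 1.05e-08). Rrp9 was at 17.1, 16 and 15 in free WT and 13.2, 6.27 and 8.25 in free KO cocultures (-0.79 ± 0.23, adjusted p = 0.00676), and missed the threshold without replicate 2 of the free KO cocultures (0.0536). The 4 box H/ACA genes were all lower there, with a median of -0.52. In replete cocultures the largest decreases were those of Dkc1 (-0.62), Ddx21 (-0.55) and Rrs1 (-0.54). Nop16, a large-subunit factor, was higher in KO cells in replete monoculture (0.48) and replete coculture (0.39). In replete monocultures Rrs1 (-0.48), Nob1 (-0.45), Dkc1 (-0.41) and Fbl (-0.38) were lower in KO cells, and Npm1 (-1.35), Ncl (-0.42) and Polr1b (-0.41) were lower in free ones.

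Free KO cocultures were also set against replete KO monocultures, to compare the deprived KO cells beside hepatocytes with undeprived KO cells alone. There 39 of 42 members were lower and 0 higher by limma, where 21.6% of all tested genes were lower and 22.9% higher, and the median was -0.49. By voom 41 were lower and 0 higher. An unadjusted limma p under 0.05 was found for 40 members and for 6146 of the 12061 tested genes. Rrp12 (-1.05), Nolc1 (-1.03) and Polr1b (-0.95) were lowest (limma adjusted p = 3.80e-07, 3.92e-10 and 2.04e-10). With only these 2 groups fitted, 24 members were lower. Without replicate 1 of the KO monocultures 39 were, and without replicates 1 and 2 of the KO cocultures 37. The shares of all tested genes in these fits are not given.

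**Figure D4:**
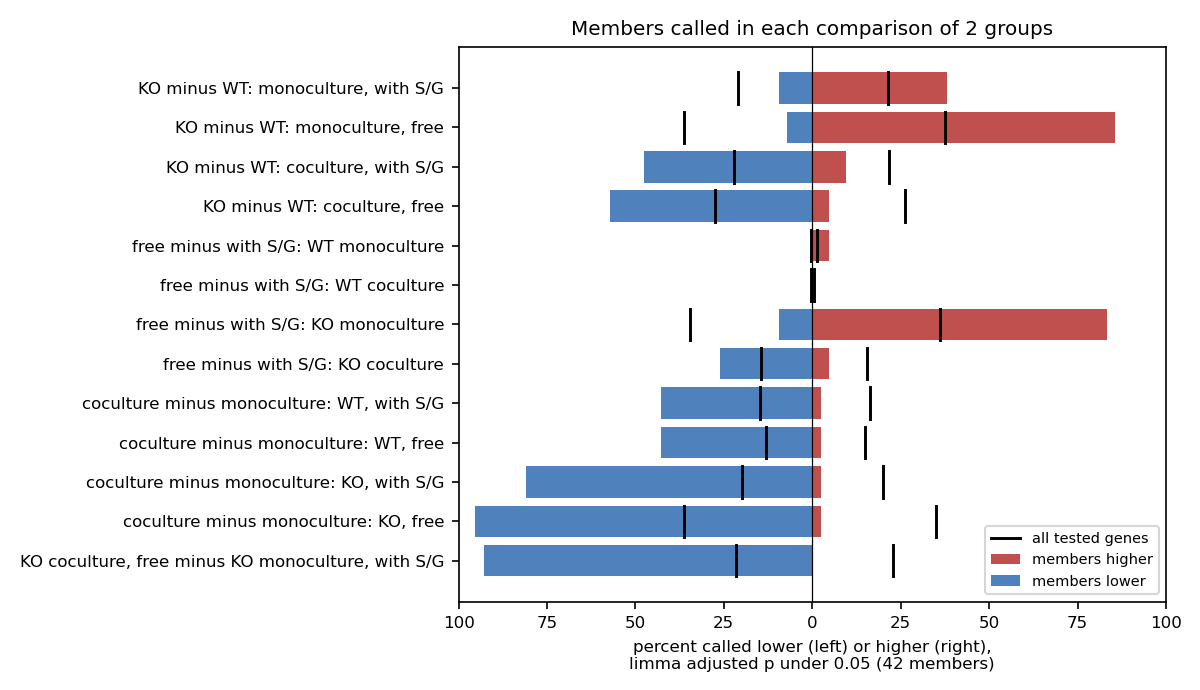
Percent of the 42 members called lower (blue, to the left) or higher (red, to the right) in each of 13 comparisons of 2 groups; black ticks give the same percent for all tested genes. The red bars of the KO against WT monocultures without serine and glycine and of withdrawal in KO monocultures pass their ticks, and the blue bars pass theirs in all coculture against monoculture comparisons.

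Other genes of the pathway were followed in a list of 110 ribosome biogenesis genes outside the 42, of which 108 were tested. Withdrawal in KO monocultures raised 82 of them and lowered 9 (median 0.62), against 36.2% and 34.5% of all tested genes. The rises were led by Tsr2, a chaperone of a small-subunit protein (2.30), and Pinx1, a nucleolar telomerase inhibitor (1.70). Coculture of free KO cells lowered 95 and raised 4 (median -0.92), against 36.3% and 35% of all tested genes, with Tsr2 at -2.59 and Pinx1 at -2.06. In replete KO cells coculture lowered 69 and raised 3 (all tested genes 19.9% and 20.1%). In WT cells it lowered 36 and raised 2 when replete (14.9% and 16.3%) and lowered 21 and raised 3 when free (13.1% and 14.9%). Withdrawal raised 1 and lowered 0 of them in WT monocultures, against 1.37% and 0.257% of all tested genes.

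Genes of the MYC network were followed beside the members. Myc was at 136.8, 161.6 and 163.5 FPKM in replete and 284.9, 319 and 321.9 in free KO monocultures (1.0 ± 0.07, limma adjusted p = 7.77e-11). The 12 WT libraries held 145 to 161.6 and the KO cocultures 140.2, 139.3 and 145.7 when replete and 131.9, 112.7 and 126.9 when free. Mxi1, which encodes a partner of Max that opposes MYC, was at 13.8, 13.2 and 13.1 in replete and 1.97, 2.4 and 1.97 in free KO monocultures. It was at 10.1 to 11 in WT monocultures and at 29.8 to 48.5 in all cocultures, with no overlap between cocultures and monocultures. Of 9 tested network genes 5 rose and 3 fell on withdrawal in KO monocultures, where 36.2% and 34.5% of all tested genes did, with the largest changes in Mxi1 (-2.21) and Mlx (1.11), which encodes another protein of the network. In WT cells, where coculture lowered 18 members in either medium, Myc was not called (-0.02 and 0.01). The part of the MYC network in the members' changes was not tested.

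Genes of DNA replication and S phase moved with the members at some comparisons and not at others. Of 29 tested genes all 29 rose on withdrawal in KO monocultures (median 1.20), led by Rrm2 (4.42) and Mcm5 (3.56), where 36.2% of all tested genes rose. In coculture of free KO cells 27 were lower and 0 higher, against 36.3% and 35% of all tested genes. In free WT cells, however, coculture raised 20 of them and lowered 1, where it lowered 18 members and raised 1. Of all tested genes it raised 14.9% and lowered 13.1%. In free KO cocultures against replete KO monocultures 18 of the S phase genes were higher and 0 lower, where 39 members were lower. There 22.9% of all tested genes were higher and 21.6% lower. The summed FPKM of the 7 ductal markers was 1620 to 1858 in replete and 4397 to 4598 in free KO monocultures and 3832 to 4138 in free KO cocultures. It was 1125 to 1197 in WT monocultures and 2231 to 2394 in WT cocultures. The single markers did not move together. In coculture of free KO cells Krt19 was higher (2.25), while Sox9 (-2.33), Krt7 (-0.93), Krt18 (-0.71), Krt8 (-0.53) and Cdh1 (-0.09) were lower. Of 6 macrophage markers Cd68 alone was expressed enough to be tested. Their summed FPKM was 6.88 to 9.73 in WT libraries, 2.73 to 4.03 in replete and 0.496 to 1.05 in free KO monocultures, and 3.28 to 4.89 in KO cocultures, with Adgre1 at 0 throughout. Cd68 fell by 1.27 on withdrawal in KO monocultures and was higher by 1.39 in coculture of free KO cells (limma adjusted p = 5.66e-08 and 1.50e-08). The 4 endothelial markers summed to at most 0.0676 FPKM in WT libraries and to 0.103 to 1.52 in KO libraries, and the 5 stellate markers to at most 0.0855 in all. The part of cell cycle, ductal, macrophage or endothelial markers or the libraries that stood apart in the members' changes was not tested beyond the values given. Of 19 tested p53 target genes 6 rose and 5 fell on withdrawal in KO monocultures, where 36.2% and 34.5% of all tested genes did. Their median was -0.01, and the largest changes were in Cdkn1a (1.12), a cell cycle inhibitor, and Ccng1 (-1.03).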

How the data were processed

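Total RNA was sequenced from 24 libraries in 8 groups of 3. Per the submitters' processing notes, HISAT2 aligned the reads to GRCm38 (mm10). The sources used here do not give the counter, annotation release, strand setting or scaling factor. As deposited by the authors, the table holds 1 FPKM per library for each of 54532 genes. The deposited FPKM gave back whole reads (100% of values below 5000 reads were within 0.02 of a whole read), with totals of 15740081 to 23479425 per library; the total used for scaling was 0.969 to 1.068 times the library's own. No 2 libraries were identical (0 pairs).

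The 12061 genes that reached 1 FPKM in 3 or more libraries were analysed as log2(FPKM + 1), a scale that understates changes of low genes. limma 3.58.1 in R 4.3.3 fitted 8 group means (16 residual degrees of freedom, mean-variance trend). The fit was first run on simulated reads with few changed genes and no library that stood apart, unlike these data. There were 13 comparisons of 2 groups and 4 interactions, two-sided, with Benjamini-Hochberg adjustment over all 12061 genes and calls at an adjusted p under 0.05. Replicates are numbered with no word on separate cultures, so p-values reflect only how these libraries vary, which may be technical. Same-numbered libraries deviated together (every correlation above 0.1) only for withdrawal in KO monocultures, with correlations of 0.401, 0.276 and 0.114. That pairing comes from the data and not from the labels. Correlations of the other sign also occurred. They were -0.628, -0.517 and 0.000301 for free KO cocultures against replete KO monocultures, and -0.34, -0.256 and -0.00972 for coculture of free KO cells.

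The members and the other lists were chosen with earlier results of these data known. Values are given for Phgdh, for the 3 largest rises and falls among called members with 5 or more FPKM on average in the higher group, in every library for the member of each role that changed most on withdrawal in KO monocultures, and for the 2 largest changes of other lists; Npm1, Ncl, Nop2, Polr1b, Nop14, Rrp9 and Myc were shown by library or singled out after their values were seen. RefSeq promoters (GRCm38.p6) were searched with Python 3.11.15, and shared sequence was counted in GENCODE transcripts. Alternatives were a pseudocount of 0.1, no filter, an FPKM of at least 5, quantile normalization, voom on recovered reads, a replicate block, only the compared groups, and libraries left out.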

Additional observations from a re-analysis of the deposited data

Results flagged for a closer look

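Each difference below was tested as an interaction in limma's model over all genes, and each was picked out because the effect of one factor differed between 2 groups. Between KO and WT monocultures, the change on withdrawal of serine and glycine was higher in KO cells for 32 members and lower for 4. Of all tested genes 31.4% were higher and 29.8% lower. Among the leading members the difference was 1.64 for Bop1, 1.53 for Nop10, 1.48 for Ddx21, 1.18 for Rrp12, 1.03 for Nop56 and 0.77 for Rrn3. It was -1.22 for Npm1, -0.64 for Ncl, -0.53 for Polr1b and -0.24 for Nop2. Between KO and WT cocultures the change on withdrawal was lower in KO cells for 3 of 42 members and higher for 0. Of all tested genes 6.38% were lower and 8.06% higher, so the lower count was near the share of all genes. Leaving out 1 library at a time gave 2 to 11 members lower.

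Between KO cocultures and KO monocultures, the change on withdrawal was lower in coculture for 33 members and higher for 2. Of all tested genes 29.8% were lower and 27.9% higher. This interaction and that between KO and WT monocultures use the same KO monocultures and are not independent. The difference was -2.13 for Nop10, -1.93 for Bop1, -1.59 for Rrp12, -1.36 for Ddx21, -1.04 for Nop56 and -0.73 for Rrn3. It was 1.09 for Npm1 and 0.57 for Ncl. In replete medium, coculture had a lower effect on 16 members in KO cells than it had in WT cells, against 5.39% of all tested genes, and on 10 when only the compared groups were fitted.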

How the results depend on the processing

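Counts of called members were set against the same counts under each alternative. The shares of all tested genes called under the alternatives are not given, so a changed count need not concern the members alone. Apart from leaving out 1 library, 281 such counts stayed within 1.5 times and 27 did not, and those within included all with a pseudocount of 0.1 and all with the replicate block.

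With only the compared groups fitted, the higher counts became 10 (KO against WT, replete monoculture), 1 (KO against WT, free coculture), 0 (withdrawal, KO coculture), 2 and 2 (coculture, replete and free WT) and 0 (coculture, replete KO); the lower counts became 5 (withdrawal, KO coculture), 24 (free KO coculture against replete KO monoculture) and 10 (genotype by coculture).
With quantile normalization they became 5 lower (KO against WT, free monoculture), and 1 (KO against WT, replete coculture), 0 (coculture, free WT), 0 (coculture, replete KO) and 2 higher (coculture, free KO).
With voom 0 were higher in coculture in replete WT, free WT and replete KO cells. With no filter 1 rose on withdrawal in KO cocultures and 0 were higher in coculture in replete KO cells. With an FPKM of at least 5, 5 were lower in the genotype-by-withdrawal interaction in coculture.
Without replicate 1 of both KO monocultures 4 were higher in KO against WT free cocultures, 4 rose and 18 fell on withdrawal in KO cocultures, 0 and 2 were higher in coculture in replete and free KO cells, and 11 were lower in the genotype-by-withdrawal interaction in coculture. Without replicates 1 and 2 of the free KO cocultures 1 rose on withdrawal in KO cocultures. The cause was not tested in these cases, beyond the fewer samples that some of them hold.

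Leaving out 1 library at a time gave 2 to 4 members higher in KO against WT replete cocultures (2 without replicate 3 of the WT cocultures), 1 to 3 in free cocultures (1 without replicate 2 of the KO cocultures), 1 to 2 rising on withdrawal in WT monocultures, and 0 to 3 rising and 7 to 16 falling on withdrawal in KO cocultures. It gave 0 to 1 higher in coculture in free WT and in replete KO cells, 1 to 2 in free KO cells, and 0 to 1 higher and 2 to 11 lower in the genotype-by-withdrawal interaction in coculture. Withdrawal in KO monocultures had 33 to 35 rises and 4 to 5 falls.

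The replicate block gave 35 rises and 4 falls on withdrawal in KO monocultures, and 34 and 4 when only these groups were fitted, a fit chosen after seeing the data. It changed 1 call of a named gene (Noc3l, given above). In the other comparisons the libraries share only a number. Quantile normalization reversed the sign for Phgdh in coculture of free KO cells (-0.41, limma adjusted p = 0.000358, against 0.04 as reported).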
